A study of Bubalus bubalis with 6 samples.

Results

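The dystrophin-glycoprotein complex was examined in muscle stem cells (MuSCs) of the water buffalo (Bubalus bubalis) through 8 genes, DMD, UTRN, DAG1, SGCA, SGCB, SGCD, SNTB1 and DTNA, which were chosen by symbol. The deposited gene table lists 24616 genes, 6039 of them by identifier alone, and 7 of the 8 members were found by symbol. DMD, the gene for dystrophin, was not found by symbol and is not analysed here. RNA of 3 samples of proliferating MuSCs (GM samples) and 3 of differentiating MuSCs (DM samples) was sequenced from poly(A) libraries. According to the study's methods, the cells were primary MuSCs isolated from fetal longissimus muscle. GM samples were kept in growth medium with fetal bovine serum, and DM samples were moved at high density to medium with horse serum. The labels do not say whether the 3 samples of a group were separate cultures or came from separate animals. The p-values below therefore set the difference between groups against the spread between these samples, which may be technical.

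The dystrophin-glycoprotein complex spans the membrane of muscle fibers and ties the actin cytoskeleton to the basement membrane. Dystrophin, or its homologue utrophin, binds actin on the inside and β-dystroglycan at the membrane, while α-dystroglycan binds laminin outside the cell through its sugar chains. The sarcoglycans and sarcospan stabilize this link, and the syntrophins and dystrobrevins hold signaling proteins at its inner face. Loss of dystrophin, of a sarcoglycan or of the glycosylation enzymes causes muscular dystrophies.

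Each GM sample held 36657735 to 40305237 counts on genes and each DM sample 35615864 to 38177614, and the 7 members took 0.0522 to 0.0638% of them. The cells carried the markers of muscle: the summed level of 9 myotube genes was 455 to 919 CPM (counts scaled to library size) in GM samples and 6278 to 9129 CPM in DM samples, and 9 of 9 rose. Of 8 myoblast markers, 3 fell (PAX3, with 12 counts in all GM samples and 0 in DM samples, MYF5 and ITGA7) and none rose, with sums of 3102 to 3337 CPM in GM samples and 2294 to 2793 CPM in DM samples. Most of these sums was DES, which was not called, at 2189 to 2389 CPM in GM samples and 1787 to 2411 CPM in DM samples. Fibroblast markers were also abundant. Their sum was 25338 to 25571 CPM in GM samples and 77696 to 97453 CPM in DM samples, and 6 of 8 tested rose and none fell. Most of that sum was COL1A1 and COL3A1, at means of 15287 and 8298 CPM in GM samples and 44328 and 39251 CPM in DM samples. With DESeq2 2 myoblast markers were called lower and none higher, and 6 fibroblast markers higher and none lower, while at an unadjusted p under 0.05 edgeR gave 1 myoblast marker higher (MYOD1) and 1 fibroblast marker lower (POSTN). Sums of smooth muscle markers were 1502 to 1672 CPM in GM samples and 1504 to 1702 CPM in DM samples. Endothelial, immune, adipocyte, and Schwann cell and neuron markers summed to at most 13.3 CPM in any sample. DM3 stood apart from DM1 and DM2: the chi-square of its counts over genes, divided by the degrees of freedom, was 40.5 to 41.4 against them and 11.7 between DM1 and DM2. DM3 also had the highest myotube sum, and its fibroblast sum of 77696 CPM was the lowest of the DM samples. The part of these markers in the results below was not tested. In bulk libraries, a change in the number of cells of a type and a change in RNA per cell cannot be told apart.

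In DM samples 4 of the 7 members rose: DTNA 6.50-fold, SGCA 3.98-fold, SGCD 3.53-fold and SNTB1 3.44-fold. UTRN and SGCB were higher in DM samples and DAG1 was lower, all by less than the 2-fold change that a call requires. Genes were called where the log2 fold change in edgeR's quasi-likelihood test exceeded 1 in size and the Benjamini-Hochberg adjusted p was below 0.05. Of 15576 genes tested, 25.3% were called, 15% as higher and 10.3% as lower in DM samples. Among the members, 4 of 7 were called higher and none lower. The same counts were obtained with DESeq2, and DAG1 was the 1 member lower at an unadjusted p under 0.05. The median log2 fold change was 1.78 over the members and 0.03 over all genes tested. The members were chosen with earlier results of these data known, so they are not an independent set to compare with all genes. GM and DM samples did not overlap for 7 of 7 members, which was also true of 68.8% of all genes tested.

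**Figure D1:**
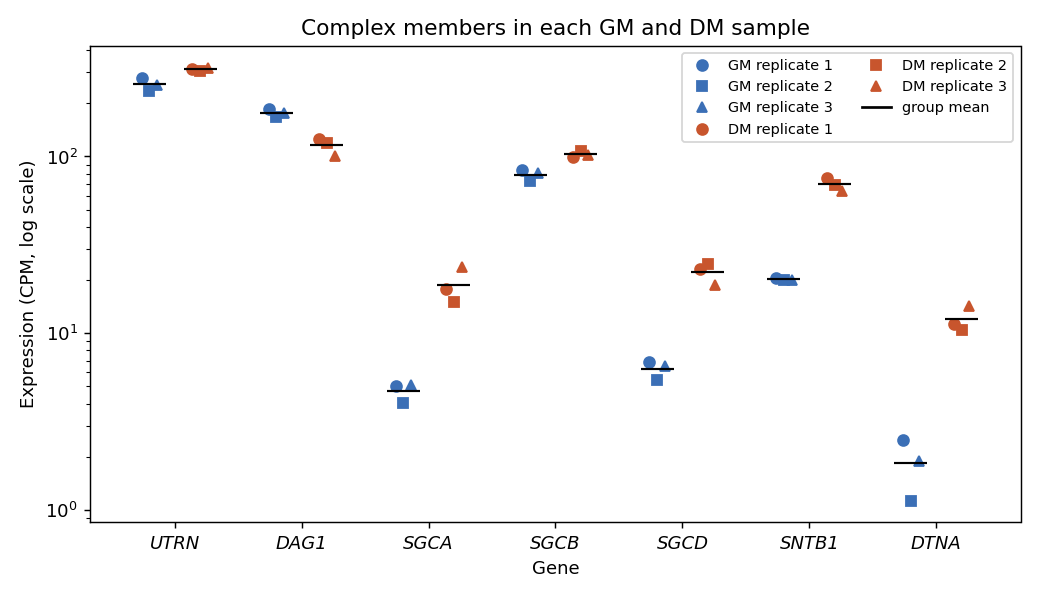
CPM (y axis, a log scale) of the 7 listed members in each of the 3 GM and 3 DM samples, 1 point per sample and a bar at the group mean. GM and DM samples do not overlap for any member, the DM samples are lower for DAG1, and the groups lie farthest apart on this scale for DTNA, at 1.84 and 12.0 CPM on average.

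UTRN encodes utrophin, the autosomal homologue of dystrophin that is found at the whole membrane of immature muscle. The gene (ENSBTAG00000009665) is listed on chromosome 9 at 82762003 to 83311756, plus strand. The positions given here and below go with cattle Ensembl identifiers and are not to be read as buffalo positions. Its counts were 11586, 9772 and 9583 in GM1 to GM3 and 10559, 11075 and 11777 in DM1 to DM3. After scaling for depth the level was 256 ± 22.4 CPM (SD, n = 3) in GM samples and 311 ± 7.93 CPM in DM samples. The log2 fold change was 0.28 (SE 0.071, 95% interval 0.13 to 0.44, edgeR adjusted p = 0.00519). The raw counts of the groups overlapped. In CPM every GM sample lay below every DM sample, but the difference was small. With library size alone the log2 fold change was 0.19 (edgeR adjusted p = 0.0419).

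DAG1 encodes the precursor of α- and β-dystroglycan, the laminin receptor at the center of the complex. It (ENSBTAG00000011580, chromosome 22, 51187154 to 51200326, minus strand) had counts of 7745, 6982 and 6649 in GM samples and 4232, 4375 and 3744 in DM samples. Its level was 177 ± 9.53 CPM in GM samples and 115 ± 12.6 CPM in DM samples (n = 3 each), 1.53-fold higher in GM. DAG1 was the 1 member with lower values in DM samples, and DM3 was the lowest of the 6 samples. The log2 fold change was -0.62 (SE 0.084, 95% interval -0.80 to -0.43, edgeR adjusted p = 8.70e-05).

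The 3 sarcoglycans among the members are single-pass membrane proteins that assemble into 1 subcomplex. α-Sarcoglycan, the product of SGCA, is known from striated muscle. SGCA (ENSBTAG00000003956, chromosome 19, 37113477 to 37122446, minus strand) had counts of 208, 167 and 194 in GM samples and 597, 549 and 872 in DM samples. Its level rose from 4.72 ± 0.609 to 18.7 ± 4.38 CPM (n = 3 each), with a log2 fold change of 1.99 (SE 0.18, edgeR adjusted p = 3.14e-06). DM3 had the highest value, 1.44 times the mean of DM1 and DM2, and without it the log2 fold change was 1.80. An unnamed protein-coding gene on the opposite strand overlaps SGCA, with 117 counts over the 6 samples. Whether the counting used strand is not given in the sources used here.

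SGCB and SGCD encode β- and δ-sarcoglycan, the core onto which the other sarcoglycans assemble. SGCD (ENSBTAG00000044046, chromosome 7, 69585066 to 70027839, plus strand) had counts of 284, 227 and 247 in GM samples and 784, 898 and 689 in DM samples. It rose from 6.27 ± 0.727 to 22.1 ± 3.11 CPM (n = 3 each), a log2 fold change of 1.82 (SE 0.14, edgeR adjusted p = 8.63e-07). Here DM3 was the lowest DM sample, opposite to SGCA. SGCB (ENSBTAG00000014601, chromosome 6, 69526335 to 69553387, minus strand) had counts of 3466, 3009 and 3067 in GM samples and 3353, 3945 and 3776 in DM samples. Its level was 78.9 ± 5.87 CPM in GM samples and 103 ± 4.35 CPM in DM samples, and the log2 fold change of 0.38 (SE 0.072, 95% interval 0.23 to 0.54, edgeR adjusted p = 0.000812) was below the size needed for a call.

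SNTB1 encodes β1-syntrophin, an adaptor that binds dystrophin, utrophin and dystrobrevin and carries a PDZ domain for channels and enzymes. SNTB1 (ENSBTAG00000044126, chromosome 14, 84253919 to 84504093, minus strand) had counts of 853, 832 and 758 in GM samples and 2537, 2531 and 2368 in DM samples. The rise, from 20.2 ± 0.331 to 69.4 ± 5.56 CPM (n = 3 each), was the most even among samples of the members that were called. Its log2 fold change was 1.78 (SE 0.078, edgeR adjusted p = 2.25e-08).

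DTNA encodes α-dystrobrevin, a dystrophin-related protein that binds syntrophins. DTNA (ENSBTAG00000012307, chromosome 24, 22445691 to 22767026, minus strand) had counts of 103, 47 and 72 in GM samples and 380, 383 and 524 in DM samples. It had the largest change of the members, from 1.84 ± 0.679 to 12.0 ± 1.95 CPM (n = 3 each). The log2 fold change was 2.70 (SE 0.25, edgeR adjusted p = 4.34e-06), and it ranged from 2.44 without GM2 to 2.99 without GM1. GM2 held 0.516 times the mean CPM of GM1 and GM3.

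The order of the samples within a group differed between members. GM2 was the lowest GM sample for 6 of 7 members, all but SNTB1, and it was also the GM sample with the lowest myotube sum. In DM3 3 members had their highest DM value (UTRN, SGCA and DTNA) and 3 had their lowest (DAG1, SGCD and SNTB1).

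Levels were compared between genes as RPKM, the reads per kilobase of gene length scaled to the library's counts. The order of genes therefore depends on the listed lengths, from 1233 bases for SGCD to 10294 bases for UTRN. In GM samples the order from high to low was DAG1 (68.0 ± 3.82 RPKM), UTRN (25.7 ± 2.31), SGCB (18.9 ± 1.45), SNTB1 (11.5 ± 0.213), SGCD (5.26 ± 0.621), SGCA (3.33 ± 0.436) and DTNA (0.291 ± 0.108 RPKM), with no overlap between neighbors. In DM samples the values lay closer together, with DAG1 at 41.5 ± 4.32, SNTB1 at 37.0 ± 2.57, UTRN at 29.2 ± 0.650, SGCB at 23.1 ± 1.37, SGCD at 17.3 ± 2.50, SGCA at 12.4 ± 2.88 and DTNA at 1.77 ± 0.288 RPKM (SD, n = 3). SNTB1 thus stood below UTRN and SGCB in GM samples and above both in DM samples. The ranges of DAG1 (36.5 to 44.2 RPKM) and SNTB1 (34.2 to 39.3 RPKM) overlapped there, as did those of SGCD (14.6 to 19.6 RPKM) and SGCA (10.1 to 15.6 RPKM). The ratio of DAG1 to UTRN in RPKM was 2.65 ± 0.0883 in GM samples and 1.42 ± 0.177 in DM samples, a description made after the values were seen and with no test.

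The question of whether the sarcoglycan transcripts changed in proportion was addressed by the share of each in the summed RPKM of SGCA, SGCB and SGCD. The size of each share depends on the listed lengths, 1465 bases for SGCA, 4318 for SGCB and 1233 for SGCD. SGCB made up 68.8 ± 1.06% of the sum in GM samples and 43.7 ± 1.41% in DM samples. The share of SGCD was 19.1 ± 0.556% and 32.9 ± 4.64%, and that of SGCA was 12.1 ± 0.619% and 23.4 ± 5.46%, in the same order. SGCA took 22.4, 18.6 and 29.3% in DM1 to DM3, so that the DM samples differed more from each other than the GM samples did. GM and DM samples did not overlap for any of the 3 shares. The levels themselves did not overlap for 68.8% of all genes tested. The 3 shares of a sample are parts of the same sum and follow from the gene levels given above. They are therefore not independent of each other and not a separate result. The exact two-sided permutation test gave p = 0.1 for each share (adjusted 0.1), the smallest value that 3 samples against 3 allow, so the design cannot reach 0.05.

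Transcript counts gave more detail for SGCA and DTNA, which have 2 listed transcripts each, while the other 5 members have 1 with the same counts as the gene. Of the 9 member transcripts 6 were called higher, both of SGCA, both of DTNA and those of SGCD and SNTB1, against 25.6% of 16352 mRNA transcripts called in either direction. All 6 belong to members called above, so they are not a separate result. The 2 SGCA transcripts share most reads: in GM2 they had 167 and 153 counts, against 167 for the gene. The long DTNA transcript (ENSBTAT00000061204, 6242 bases) had counts of 102, 47 and 71 in GM samples and 366, 368 and 479 in DM samples, giving a log2 fold change of 2.61 (SE 0.24, edgeR adjusted p = 3.32e-06). The short DTNA transcript (ENSBTAT00000048673, 1691 bases) had counts of 37, 23 and 21 in GM samples and 215, 221 and 350 in DM samples, giving a log2 fold change of 3.42 (SE 0.27, edgeR adjusted p = 9.61e-07). The ratio of short to long DTNA counts was 0.383 ± 0.0983 in GM samples and 0.640 ± 0.0792 in DM samples. The ranges of this ratio, 0.296 to 0.489 and 0.587 to 0.731, did not overlap, and the difference was not tested. In DM3 the counts of both DTNA transcripts sum to 829, more than the 524 of the gene, so reads were counted for both and the transcripts are not independent. The 2 SGCA transcripts had log2 fold changes of 1.97 and 1.96.

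**Figure D2:**
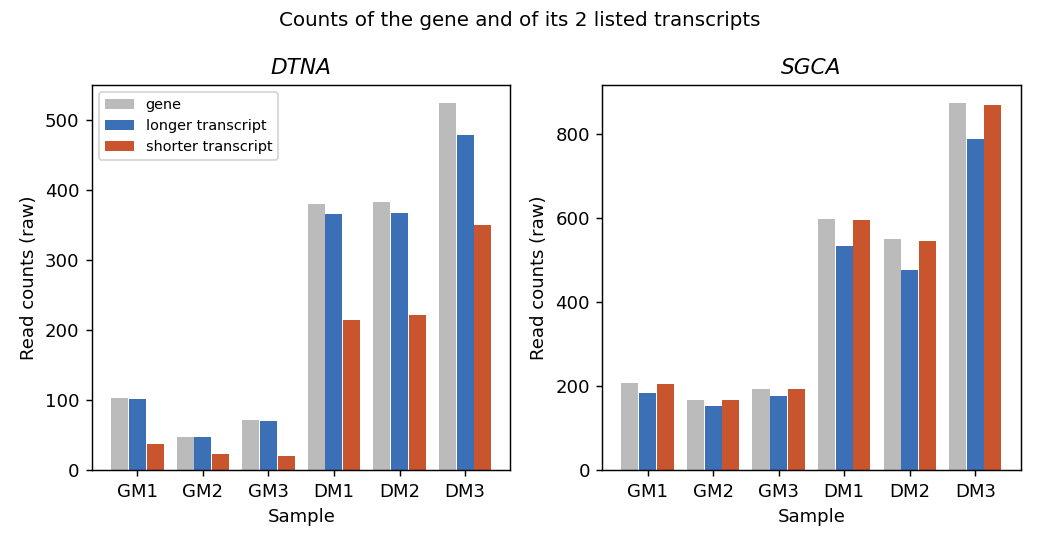
Raw read counts (y axis) of DTNA (left) and SGCA (right) in each of the 6 samples, with bars for the gene, its longer transcript and its shorter transcript. The shorter DTNA transcript has 21 to 37 counts in GM samples, against 215 to 350 in DM samples, and lies closer to the longer one in DM samples, while the SGCA transcripts stay near each other in all samples.

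Of 8 further subunits and homologues of the complex reported here, 6 were listed and tested. Of these 3 rose, 1 fell and 2 were not called, with a median log2 fold change of 0.81 and 66.7% called against 25.3% of all genes. The list is not complete, so its counts do not cover every subunit. SSPN, the gene for sarcospan, had counts of 159, 122 and 120 in GM samples and 377, 437 and 381 in DM samples (log2 fold change 1.75, SE 0.15, edgeR adjusted p = 2.29e-06).

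SGCE encodes ε-sarcoglycan, a widely expressed homologue of α-sarcoglycan. Its counts were 2093, 1926 and 1744 in GM samples and 2307, 2715 and 2157 in DM samples. The log2 fold change of 0.49 (SE 0.091, edgeR adjusted p = 0.000781) was not called. The ratio of SGCE to SGCA in RPKM was 8.15 ± 1.02 in GM samples and 3.01 ± 0.990 in DM samples. The groups did not overlap. When SGCE was added to the sarcoglycan sum, it was the largest share in both groups, at 49.5 ± 1.84% in GM samples and 40.0 ± 2.92% in DM samples. In that sum the differences for SGCA, SGCB and SGCD were 8.06, -8.57 and 9.97 percentage points. They kept the direction of the 3-gene shares, at 11.4, -25.1 and 13.8 points.

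**Figure D3:**
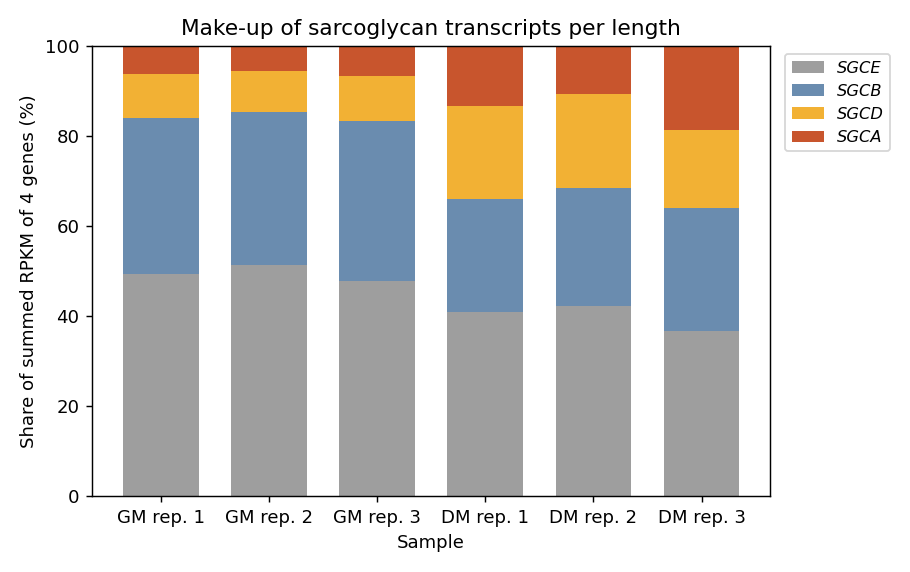
Share (percent, y axis) of SGCA, SGCB, SGCD and SGCE in the summed RPKM of these 4 genes, as a stacked bar for each of the 6 samples. SGCE is the largest share in every sample, and the SGCA share is largest in DM3, at 18.6%.

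SNTB2, for β2-syntrophin, had counts of 776, 741 and 680 in GM samples and 1379, 1382 and 1504 in DM samples (log2 fold change 1.13, SE 0.073, edgeR adjusted p = 3.01e-07). The ratio of SNTB1 to SNTB2 in RPKM was 1.05 ± 0.0113 in GM samples and 1.65 ± 0.142 in DM samples. SNTG1, for the γ1-syntrophin known from neurons, fell from counts of 39, 41 and 44 to 2, 1 and 1, a ratio of GM over DM of 27.5 (95% counting interval 10.5 to 103, counting error only).

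DTNB encodes β-dystrobrevin, the homologue of α-dystrobrevin outside muscle. DTNB counts were 553, 581 and 509 in GM samples and 551, 448 and 484 in DM samples, for a log2 fold change of 0.03 (SE 0.12, edgeR adjusted p = 0.838). The sign turned with library size alone (-0.069) and without DM1 (-0.092). Per kilobase, DTNB was 24.2 ± 10.7 times as high as DTNA in GM samples and 3.46 ± 0.771 times in DM samples. The size of these ratios depends on the listed lengths, 2236 bases for DTNB and 6545 for DTNA. In GM1 to GM3 the ratio was 15.7, 36.2 and 20.7, and its highest value, in GM2, rests on 47 DTNA counts. DRP2, a dystrophin-related gene known from Schwann cells, had counts of 33, 26 and 13 in GM samples and 86, 72 and 57 in DM samples (log2 fold change 1.77, SE 0.35, edgeR adjusted p = 0.00125). The Schwann cell and neuron markers summed to 1.18 to 2.24 CPM in GM samples and 1.63 to 6.16 CPM in DM samples.

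**Figure D4:**
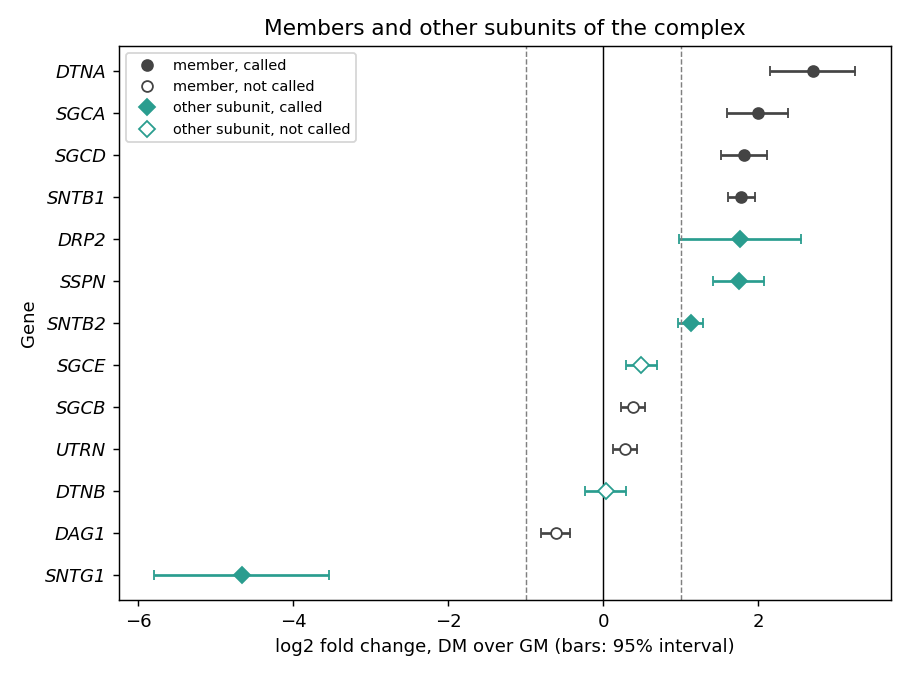
Log2 fold change (DM over GM, x axis) of the 7 members and the 6 further subunits, with bars for the 95% interval of the edgeR fit and dashed lines at -1 and 1. DTNA lies farthest to the right at 2.70, and UTRN, SGCB, DAG1, SGCE and DTNB lie between the dashed lines. For SNTG1, with 1 or 2 counts per DM sample, the fitted value depends on the prior count.

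The wider set of partners was described by 4 lists. Of 16 tested genes for the glycosylation of α-dystroglycan reported here, none was called in either direction, against 25.3% of all genes. Their median log2 fold change was -0.17. DESeq2 also called 0, and at an unadjusted p under 0.05 edgeR gave 4 higher and 7 lower, where 66.5% of all genes tested passed in either direction. Some genes of this pathway are not reported here, so these counts do not describe the whole pathway.

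Of 11 tested extracellular ligands, 2 rose and 2 fell, all of them laminin α chains, or 36.4% against 25.3% of all genes called, with a median log2 fold change of 0.47. LAMA2, the α chain of the main laminin of the muscle basement membrane, rose from 41.0 ± 3.93 to 156 ± 4.90 CPM (log2 fold change 1.93, SE 0.079, edgeR adjusted p = 1.66e-08). LAMA4 had a log2 fold change of 1.03 (SE 0.086, edgeR adjusted p = 2.01e-06), which was 0.93 with library size alone and 0.96 without DM1, below a call in both cases. LAMA5 fell from 608 ± 10.02 to 158 ± 30.9 CPM (log2 fold change -1.95, SE 0.12, edgeR adjusted p = 2.70e-07). LAMA1, a laminin chain of early development, had counts of 5030, 5008 and 4282 in GM samples and 324, 390 and 2069 in DM samples. The DM samples were therefore uneven, and the LAMA1 log2 fold change was -2.21 (SE 0.53, edgeR adjusted p = 0.00397) with all samples and -3.54 without DM3.

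Of 16 tested intracellular partners, 6 rose and 1 fell, or 43.8% against 25.3% of all genes, with a median log2 fold change of 0.29. One of the 6, the keratin gene KRT19, rests on DM3, with counts of 54, 99 and 53 in GM samples and 73, 106 and 451 in DM samples. GM and DM samples overlapped for KRT19, its log2 fold change was 1.76 (edgeR adjusted p = 0.0204) and 0.58 without DM3 (adjusted p = 0.0551), and it was also not called without GM1 (adjusted p = 0.0803) or GM3 (0.0732). KRT19 is named here after its values were seen. KRT8, another keratin gene, had counts of 0, 1 and 0 in GM samples and 18, 22 and 21 in DM samples, a ratio of 68.7 (95% counting interval 11.9 to 2759). The 1 count in GM samples was in GM2. CAPN3, a muscle protease, had counts of 12, 6 and 22 in GM samples and 414, 466 and 730 in DM samples (log2 fold change 5.47, SE 0.35, edgeR adjusted p = 3.09e-07), and its log2 fold change was 6.08 without GM3. ABCA1, a cholesterol transporter that binds syntrophins, had a log2 fold change of 2.35 (SE 0.11, edgeR adjusted p = 3.52e-08). FLNC, the muscle filamin that binds sarcoglycans, fell from 1692 ± 51.6 to 572 ± 58.8 CPM (log2 fold change -1.56, SE 0.079, edgeR adjusted p = 5.91e-08).

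The α7β1 integrin is the other main laminin receptor of muscle. The list tested held 8 genes: its chains ITGA7 and ITGB1, the α chains ITGA5 and ITGA6 of other integrins, and the linkers VCL, TLN1, TLN2 and ILK. Of these 8, 2 fell and none rose, or 25% against 25.3% of all genes, with a median log2 fold change of -0.57. DESeq2 called 0 higher and 2 lower. At an unadjusted p under 0.05 edgeR gave 0 higher and 8 lower, where 66.5% of all genes passed in either direction. ITGA7, the α7 chain, which is also counted above as a myoblast marker, fell from 253 ± 13.2 to 64.8 ± 8.81 CPM (log2 fold change -1.96, SE 0.097, edgeR adjusted p = 5.02e-08). TLN2, the muscle talin, had a log2 fold change of -1.13 (SE 0.082, edgeR adjusted p = 7.20e-07). Over the further subunits and these 4 lists together, 57 genes were tested, 11 rose and 6 fell, and the median log2 fold change was 0.0071. The 29.8% called lie near the 25.3% of all genes.

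**Figure D5:**
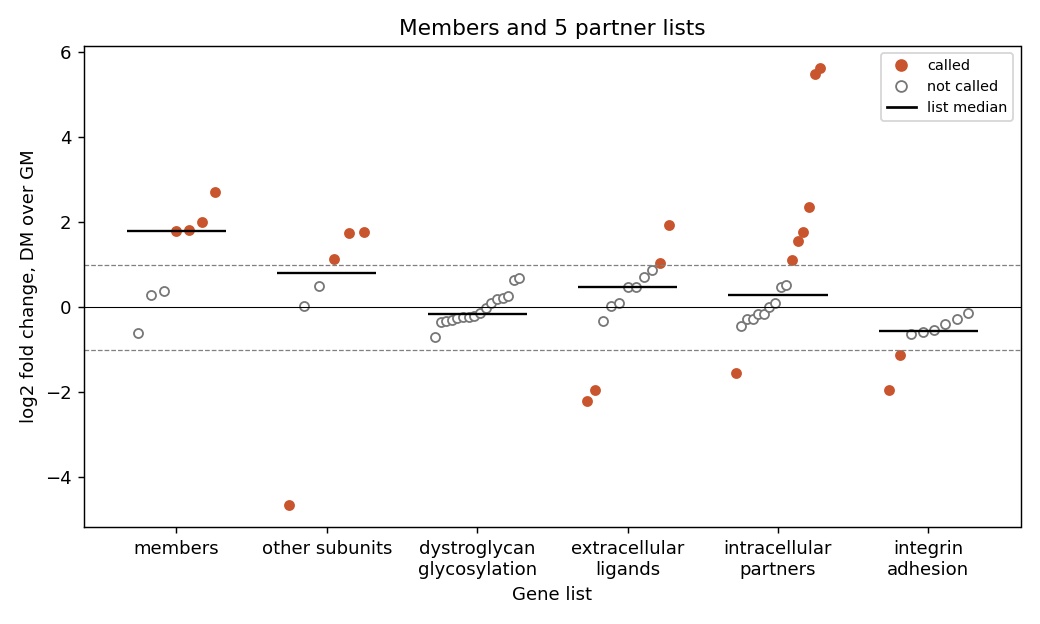
Log2 fold change (DM over GM, y axis) of each tested gene among the members and in the 5 lists, 1 point per gene, filled where called, with the median as a bar. The medians are 1.78 for the members, 0.81 for the further subunits, -0.17 for glycosylation, 0.47 for ligands, 0.29 for intracellular partners and -0.57 for the integrin genes.

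For each called member, the genes with the most similar pattern were found by the root mean square difference of log2 CPM over the 6 samples after centering, for genes averaging 10 CPM or more. For SNTB1 these were DPYSL3 (0.0412), LGALS3BP (0.0419), PC (0.0484), RNF185 and CAPN5. For SGCD they were DPYD (0.0580), EYA4 (0.0889), SLC29A4, TNFAIP6 and WIPF3. LDLRAD4 (0.0951), COL4A5 (0.112), MAP2K6 (0.114), LBH and LOXL4 lay closest to SGCA. For DTNA they were TM7SF2 (0.129), SH3BGR (0.161), the embryonic myosin gene MYH3 (0.168), REEP1 and ENSBTAG00000000440. No gene appears in more than 1 of these lists, and the points share the same 6 libraries.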

How the data were processed

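The gene and mRNA tables were used as deposited by the authors. The count columns hold raw counts per gene or transcript, made by the authors from aligned reads. RPKM values, also deposited, follow exactly from these counts, the deposited Length in bases and each sample's summed gene counts. The submitters' processing notes name Bowtie 0.12.2 and the builds mm8 and mm9, while the study's methods name HISAT2 and the buffalo genome and the tables list cattle Ensembl identifiers. Positions are given as in the tables, with no build stated. They accompany the cattle identifiers, with some genes on chromosome 29, and are not to be read as positions in the buffalo genome. The ncRNA table held no row of a member and was not used. Deposited lists with the authors' fold changes, p-values and q-values were not used. No sample column was left unmapped.

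Counts were tested with edgeR 4.0.16 in R 4.3.3 (glmQLFit, glmQLFTest, TMM) on genes that reached 10 counts summed over all samples, with Benjamini-Hochberg adjustment over all of them. CPM use TMM-scaled library sizes. limma 3.58.1 was loaded with edgeR. The pipeline was tested on simulated data. Figures used Python 3.11.15, pandas 2.3.3, numpy 2.4.6 and matplotlib 3.10.9. Alternatives were DESeq2 1.42.0, other scalings and filters, a filter on RPKM (1 or more in over 50% of samples), other fold thresholds, a replicate block and each sample left out.

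The members and lists were chosen with earlier results of these data known. Named genes were all members, every tested further subunit, and from each other list up to 3 called genes with the largest rise and 3 with the largest fall. Ratios between genes, the transcript ratio and the similar patterns of members other than DMD were added after the data were seen. A DMD to UTRN ratio and a search for genes like DMD could not be run without DMD. No promoter or protein sequence is shown. Counting intervals cover counting error only. Some genes of the lists are not reported here and were left out of every list count and figure after the data were seen.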

Additional observations from a re-analysis of the deposited data

How the results depend on the processing

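The 4 calls among the members held in every alternative that tested them, except that the RPKM rule removed DTNA, which left 3. Without a minimum fold change UTRN and SGCB were also called higher and DAG1 lower, giving 1 member called lower. The number of genes called was 3936, 2197 under the RPKM rule, 9813 without a minimum fold change, 2293 when tested against a fold change of 2 and 3673 with DESeq2. Partner genes called higher numbered 11, and 20 without a minimum fold change and 7 against a fold change of 2. Those called lower numbered 6, and 22 without a minimum fold change. Under the RPKM rule, by which the paper defines reliably expressed genes, 8 partner genes were called higher and 5 lower. DRP2, CAPN3, KRT8 and SNTG1 did not pass that rule and were not tested under it. With library size alone 52.8% of calls were higher, against 59.2%. DTNB reversed to -0.069 with library size alone, and with 1 sample left out it ranged from -0.092 (without DM1) to 0.129 (without DM2). Same-numbered GM and DM samples did not deviate together (r = -0.0076, -0.0218 and -0.0105). With 3 samples per group this cannot settle whether the numbers pair them. With a replicate block 3837 genes were called and no member changed its call. Log2 fold changes with 1 sample left out ranged from 0.23 to 0.35 for UTRN, -0.67 to -0.52 for DAG1, 1.80 to 2.15 for SGCA, 0.33 to 0.43 for SGCB, 1.73 to 1.94 for SGCD, 1.73 to 1.84 for SNTB1 and 2.44 to 2.99 for DTNA. Differences in shares ranged from 8.41 to 13.8 points for SGCA, -25.9 to -24.5 for SGCB and 12.1 to 16.4 for SGCD. Tested against a fold change of 2, SNTB2, LAMA4, TLN2, CAV3 and KRT19 were no longer called. The low counts of DTNA, SNTG1 and KRT8 in 1 group limit the precision of their folds.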

Other observations

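Some glycosylation and membrane genes were named after their values were seen. DPM3 and GMPPB, which act in the supply of mannose donors, had log2 fold changes of 0.69 (SE 0.11) and -0.69 (SE 0.088), and neither reached a call. Among intracellular partners, DYSF, the membrane repair gene dysferlin, rose with a log2 fold change of 1.56 (SE 0.20, edgeR adjusted p = 5.09e-05), and CAV3, for muscle caveolin, with 1.11 (SE 0.13, edgeR adjusted p = 3.15e-05), though CAV3 was not called when tested against a fold change of 2. The laminin β and γ chain genes LAMB1, LAMB2 and LAMC1 had log2 fold changes of 0.70, 0.08 and 0.03, none of them a call.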
